A study of Mus musculus with 8 samples.

Results

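The integrated stress response genes described here are *Ddit3*, *Atf3*, *Atf4*, *Trib3*, *Myd116* (the older symbol of *Ppp1r15a*, the gene of GADD34), *Gadd45b*, *Asns*, *Chac1*, *Sesn2* and *Ddit4*. They are 10 of the 30789 gene symbols on a mouse bead array and were taken by symbol. They were chosen on measured values, the differences between macrophages loaded with acetylated low-density lipoprotein (Ac-LDL) and control macrophages on these same arrays, over all arrays and within each slide. Those differences are therefore given as a description. The counts of calls among them stand beside the share called over all probes and are no evidence for the members. The array carried 18 probes of the 10 genes, and 15 of them, with at least 1 for every gene, passed the filter on dim probes (a detection p-value no higher than 0.05 on 4 or more of the 8 arrays) and were tested among 17122 probes of 12423 symbols. Of these 15 probes, 14 were detected on all 8 arrays and the *Sesn2* probe on 7, so that none entered through the control group alone.

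The study asked which genes change when macrophages take up modified lipoprotein and turn into foam cells. All 8 samples were thioglycollate-elicited peritoneal macrophages of C57/BL6 mice at 8 weeks of age, which the methods describe as adherent cells from males grown with L-929 conditioned medium. The 4 Ac-LDL samples received Ac-LDL at 120 μg/ml for 24 h, the 4 control samples were mock treated, and both groups are labelled as biological replicates 1 to 4. Replicates 1 and 2 of both groups shared 1 slide and replicates 3 and 4 another, named slide 1 and slide 2 here after the chip identifiers in the labels. Whether a replicate came from a single mouse or from pooled mice is not given in the sources used here. Thioglycollate elicits inflammatory macrophages, and Ac-LDL is a chemically modified particle used to load them with cholesterol, which limits both as models of a resident macrophage or of a lesion.

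Values are normalized log2 intensities, in which a difference of 1 is a doubling, and 16679 to 17439 of 45281 probes were detected per array. Each signal was the mean over a median of 43 to 44 beads, and the number of arrays limits the precision. The macrophage markers *Cd68* and *Lyz2* were bright on every array, while the probe of *Msr1*, a scavenger receptor, was detected on none. Of the mesothelial and fibroblast markers 5 of 6, *Dcn* and *Upk3b* among them, were detected on all 8 arrays, and none of 6 eosinophil and mast cell markers was detected on any. In RNA from whole cultures, fewer cells of a type and less RNA per cell cannot be told apart.

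In the integrated stress response, kinases that sense amino acid shortage, unfolded protein in the endoplasmic reticulum, viral RNA or haem deficiency phosphorylate the translation factor eIF2. General translation then slows while the mRNA of ATF4 is translated better, and ATF4 induces genes of amino acid supply, further transcription factors and inhibitors that end the response. In macrophages the pathway is known from cholesterol overload of the endoplasmic reticulum, where its factor CHOP, the product of *Ddit3*, is linked to cell death in atherosclerotic lesions.

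Printed here are 50-base probes of the most variable member, *Ddit3*, and of some of its partners. They are both *Ddit3* probes and a single probe each of *Atf4*, *Trib3* and *Asns*. None of their letters is capitalised. The first base of each probe stood at position 395 of the annotated transcript for the brighter *Ddit3* probe and 513 for the other, 1570 for *Atf4*, 923 for the dimmer *Trib3* probe and 1571 for the dimmer *Asns* probe.
Ddit3 ILMN_2652909: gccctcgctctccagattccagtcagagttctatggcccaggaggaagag
Ddit3 ILMN_2927373: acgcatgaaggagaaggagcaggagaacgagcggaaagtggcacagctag
Atf4 ILMN_2642681: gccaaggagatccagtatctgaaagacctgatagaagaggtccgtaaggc
Trib3 ILMN_1252762: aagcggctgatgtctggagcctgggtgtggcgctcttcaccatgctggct
Asns ILMN_3006123: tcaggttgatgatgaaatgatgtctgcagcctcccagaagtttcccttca

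The deposited annotation, which names no genome build, places the *Ddit3* probes on the plus strand of chromosome 10 at 126732885 to 126732934 and at 126733003 to 126733052. It places *Gadd45b* on the same chromosome at 80394632 to 80394681 (brighter probe) and *Ddit4* at 59345202 to 59345251. The brighter *Trib3* probe lies at 152163202 to 152163251 and *Chac1* at 119179974 to 119180023, both on chromosome 2. *Atf4* lies on chromosome 15 at 80087816 to 80087865, *Myd116* on chromosome 7 at 52778462 to 52778511, *Atf3* on chromosome 1 at 192994473 to 192994522, and *Sesn2* on chromosome 4 at 132049025 to 132049074. All of these probes match exons, as the annotation gives each a position within a transcript. The dimmer *Asns* probe, in 2 blocks between 7625477 and 7625994 on chromosome 6, spans an exon junction. The dimmer *Atf4* probe is also given in 2 blocks, at 80086687 to 80086736, but with no gap between them. The brighter *Asns* probe has no position in the annotation.

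Promoters were read from RefSeq (build GRCm38.p6) as the 250 bases before and 50 after each start, and all 10 members had one. The core of the C/EBP-ATF response element through which ATF4 acts, TGATGNAA on either strand, was found in the promoters of 4 members, *Atf3*, *Trib3*, *Asns* and *Chac1*, and in 3.97% of 32851 promoters of the same length. The stretches around the match are shown for the members in which it lies before the start, with the match in capitals. They are chr1:191183416-191183463 on the minus strand, chr6:7693210-7693252 on the minus strand and chr2:119351029-119351076 on the plus strand.
Atf3: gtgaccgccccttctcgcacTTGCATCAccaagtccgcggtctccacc
Asns: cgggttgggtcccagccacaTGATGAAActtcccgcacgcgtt
Chac1: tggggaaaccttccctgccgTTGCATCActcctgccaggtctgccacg

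In *Trib3* the match, TTACATCA, lay 14 bases after the start. The cAMP response element TGACGTCA was found in 1 member, *Myd116*, 12 bases before the start, and in 1.79% of all promoters, and the endoplasmic reticulum stress element (ERSE) in none of the 10 and in 0.119% of all. Both strands were searched, and no promoter of a member held more than 1 of the motifs. No match says only that these letters are absent from this window.

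Across the 10 genes, 9 were lower with Ac-LDL and *Sesn2* was higher, by the brightest tested probe of each gene. The median log2 difference was -0.44, against 0.0012 over all tested probes. Within slide 1 all 10 were lower, with a median of -0.66, and within slide 2 7 were lower, with a median of -0.14. None of the 15 member probes was called (limma, adjusted p under 0.05), where 0.0409% of all tested probes were, and 6 had an unadjusted p under 0.05, as had 5.20% of all tested probes. The methods' t-test, run on the values normalized here and with the same adjustment, called none of them either. By it 5 had an unadjusted p under 0.05, as had 6.07% of all tested probes. The study itself took an unadjusted p under 0.05 together with a fold cutoff, on its own normalization. None was called with the slide as a block, where 0.234% of probes were called lower, or with the replicate number as a block, where 0.280% were. The genes differed in how these values were spread over the arrays, which is given below by role.

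**Figure D1:**
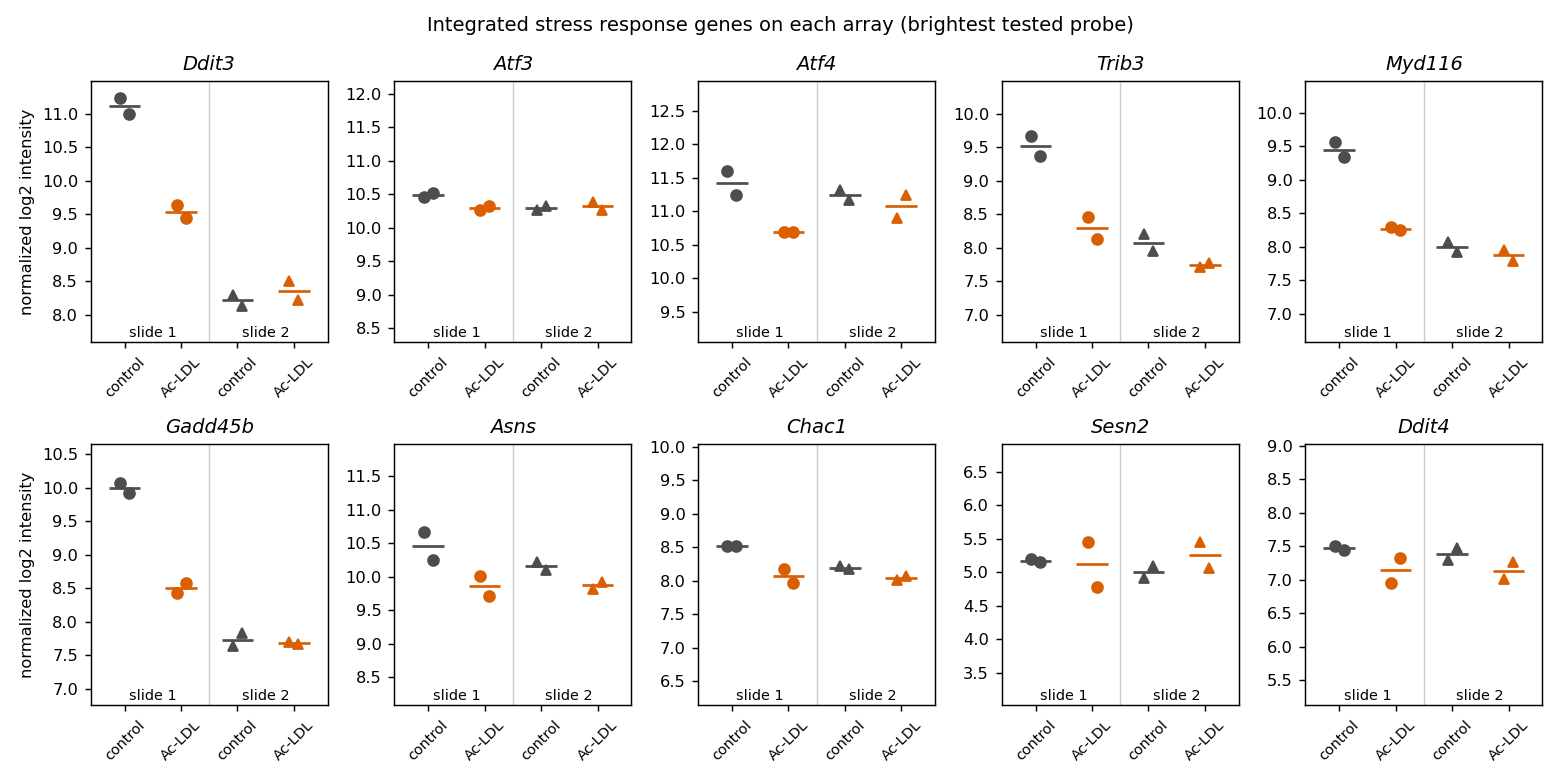
Normalized log2 intensity of each of the 10 genes on the 8 arrays, by the brightest tested probe. Circles are arrays of slide 1 and triangles arrays of slide 2, grey is control and orange Ac-LDL, lines are the means of 2 arrays, and every panel spans the same log2 range. *Ddit3* and *Gadd45b* were highest on the 2 control arrays of slide 1, at 11.01 to 11.24 and 9.93 to 10.07, intermediate on its Ac-LDL arrays and lowest on slide 2.

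Among the transcription factors, *Ddit3* varied most. Its brighter probe read 11.24 and 11.01 on control arrays 1 and 2, 9.64 and 9.44 on Ac-LDL arrays 1 and 2, 8.29 and 8.14 on control arrays 3 and 4, and 8.50 and 8.22 on Ac-LDL arrays 3 and 4. The 2 control arrays of slide 1 stood alone at the top, the 2 Ac-LDL arrays of that slide came next, and the 4 arrays of slide 2 overlapped at the bottom. The deposited signals behind these values were 2794 and 1885 on the slide 1 control arrays, 744 and 682 on its Ac-LDL arrays, and 302 to 390 on slide 2. Their bead standard errors were 2.21% to 4.39% of the signal.

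The control mean of this *Ddit3* probe was 9.67 ± 1.68 and the Ac-LDL mean 8.95 ± 0.69 (SD, n = 4), a difference of -0.72 with a standard error of 0.71. Within slide 1 the difference was -1.58, a control level 3.00-fold that with Ac-LDL, and within slide 2 it was 0.15, with a standard error of 0.14 for each. The second *Ddit3* probe, 10.33 and 10.03 on the slide 1 control arrays and 7.50 to 7.76 on slide 2, had differences of -1.63 within slide 1 and -0.03 within slide 2. The overall value of *Ddit3* is thus the average of a 3-fold gap on 1 slide and almost none on the other.

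*Atf4*, whose product drives the response, had a smaller and differently spread difference. Its brighter probe read 11.59, 11.24, 11.31 and 11.16 on control arrays 1 to 4 and 10.69, 10.69, 10.90 and 11.25 on Ac-LDL arrays 1 to 4. The control arrays of both slides overlapped, and the lowest values were the Ac-LDL arrays of slide 1. The difference was -0.44 (standard error 0.15), -0.72 within slide 1 and -0.16 within slide 2. The dimmer *Atf4* probe had -0.88 and 0.03 there. ATF4 is set mainly at translation, which an mRNA array does not measure.

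*Atf3*, an ATF/CREB family factor that also dampens inflammatory genes in macrophages, was close to level. It read 10.45, 10.52, 10.26 and 10.32 on the control arrays and 10.27, 10.33, 10.39 and 10.27 on the Ac-LDL arrays. Its range over the 8 arrays was 0.25, the smallest of the 10 genes, and the differences were -0.08 over all arrays, -0.19 within slide 1 and 0.03 within slide 2.

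Both feedback inhibitors followed the slides as *Ddit3* did, with a narrower range. *Trib3* encodes a pseudokinase that binds and restrains ATF4 and CHOP. Its brightest probe read 9.66 and 9.36 on the control arrays and 8.45 and 8.14 on the Ac-LDL arrays of slide 1, and 8.21 and 7.95 on the control arrays and 7.71 and 7.78 on the Ac-LDL arrays of slide 2. On each slide both control arrays were above both Ac-LDL arrays. The difference was -0.78 (standard error 0.36), -1.22 within slide 1 (2.33-fold) and -0.33 within slide 2, with a standard error of 0.16 within a slide.

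The second tested *Trib3* probe, near background at signals of 60.6 to 110, had -0.48 within slide 1 and -0.04 within slide 2. The remaining *Trib3* probe was not tested, as it was detected on 3 arrays, the control arrays of slide 1 and Ac-LDL array 1. These are the arrays on which the brightest probe was also highest.

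*Myd116* encodes GADD34, which brings protein phosphatase 1 to eIF2 and so restores translation. It read 9.56 and 9.35 on the slide 1 control arrays, 8.30 and 8.25 on its Ac-LDL arrays, 8.08 and 7.92 on the slide 2 control arrays and 7.96 and 7.79 on its Ac-LDL arrays. The groups were apart on slide 1 and overlapped on slide 2. The difference was -0.65 (standard error 0.35), -1.18 within slide 1 (2.27-fold) and -0.13 within slide 2 (standard error 0.12).

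*Gadd45b*, a stress adaptor that feeds into p38 and JNK signalling, had the pattern of *Ddit3*. Its brighter probe read 10.07 and 9.93 on the slide 1 control arrays and 8.42 and 8.57 on its Ac-LDL arrays, against 7.64 and 7.83 on the slide 2 control arrays and 7.70 and 7.67 on its Ac-LDL arrays. All 4 arrays of slide 2 were below all 4 of slide 1. The difference was -0.78 (standard error 0.54), -1.50 within slide 1 (2.83-fold) and -0.05 within slide 2 (standard error 0.12), and the dimmer probe had -0.96 and -0.05.

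The metabolic genes were lower with Ac-LDL on both slides by their brightest probe, with smaller gaps. *Asns*, the enzyme that makes asparagine, read 10.66, 10.25, 10.22 and 10.10 on the control arrays and 10.01, 9.71, 9.82 and 9.93 on the Ac-LDL arrays. It was the single member whose 4 Ac-LDL arrays all lay below its 4 control arrays, as did 1.68% of all tested probes. The control mean was 10.31 ± 0.24 and the Ac-LDL mean 9.87 ± 0.13 (SD, n = 4), a difference of -0.44 with a standard error of 0.13, made of -0.60 within slide 1 and -0.29 within slide 2. The dimmer *Asns* probe gave the same overall difference, -0.44, but overlapped between groups on slide 2, where it had 7.40 and 7.63 on the control arrays and 7.50 and 7.23 on the Ac-LDL arrays. The remaining *Asns* probe was detected on control array 1 alone and was not tested.

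*Chac1*, which breaks down glutathione, read 8.52, 8.52, 8.21 and 8.17 on the control arrays and 8.18, 7.97, 8.01 and 8.07 on the Ac-LDL arrays. Within each slide the control arrays were the higher, by 0.44 and 0.16, and Ac-LDL array 1 reached the control level of slide 2. Its overall difference was -0.30 (standard error 0.11).

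The remaining members restrain mTORC1, the kinase complex of cell growth. *Ddit4*, the gene of REDD1, read 7.50, 7.45, 7.30 and 7.47 on the control arrays and 6.96, 7.32, 7.01 and 7.26 on the Ac-LDL arrays. Its difference was -0.33 within slide 1 and -0.25 within slide 2, and -0.29 over all arrays (standard error 0.11). With 1 array left out, the value ran from -0.51 to -0.15 within slide 1 and from -0.37 to -0.12 within slide 2, and Ac-LDL array 2 overlapped with control array 3. *Sesn2*, whose product senses leucine, was near background at signals of 50.4 to 71.3, with 4.91 to 5.20 on the control arrays and 4.78 to 5.46 on the Ac-LDL arrays. Its difference was 0.10 (standard error 0.16), -0.06 within slide 1 and 0.25 within slide 2, and its other probe was detected on no array.

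Within slide 1, 4 genes by 5 probes were at least 2-fold lower with Ac-LDL, *Ddit3*, *Trib3*, *Myd116* and *Gadd45b*, as were 0.146% of all tested probes. None was within slide 2, where 0.239% of probes were. By the limma fit with 4 group-by-slide means, 6 member probes of the same 4 genes were called lower within slide 1, where 0.234% of probes were, and none within slide 2, where 0.187% were. For the difference of the Ac-LDL effects between the slides no member probe was called, nor was any of the 17122 probes (0%), while 10 member probes and 1435 of all probes (8.38%) had an unadjusted p under 0.05. With the replicate number as a block 2 probes were called for that difference, 1 of them of *Ddit3*. As the members were chosen on these contrasts, nothing is read from the counts.

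The slide 1 gap is set here beside the bead errors of the deposited signals. These signals were not normalized between arrays, so a gap can also hold a difference in brightness between arrays. The members were chosen on this gap, which is given as a description. The lower control signal of slide 1 exceeded its higher Ac-LDL signal by 24.4 combined bead standard errors for the brighter *Ddit3* probe, 14.9 for the brightest *Trib3* probe, 13.7 for *Gadd45b* and 12.8 for *Myd116*. The gap was 4.79 for *Atf4*, 3.87 for *Chac1*, 3.02 for *Asns*, 1.72 for *Atf3* and 0.367 for *Ddit4*, and for *Sesn2* the order was the other way. Bead errors cover the reading of 1 hybridisation and not the spread between cultures.

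**Figure D2:**
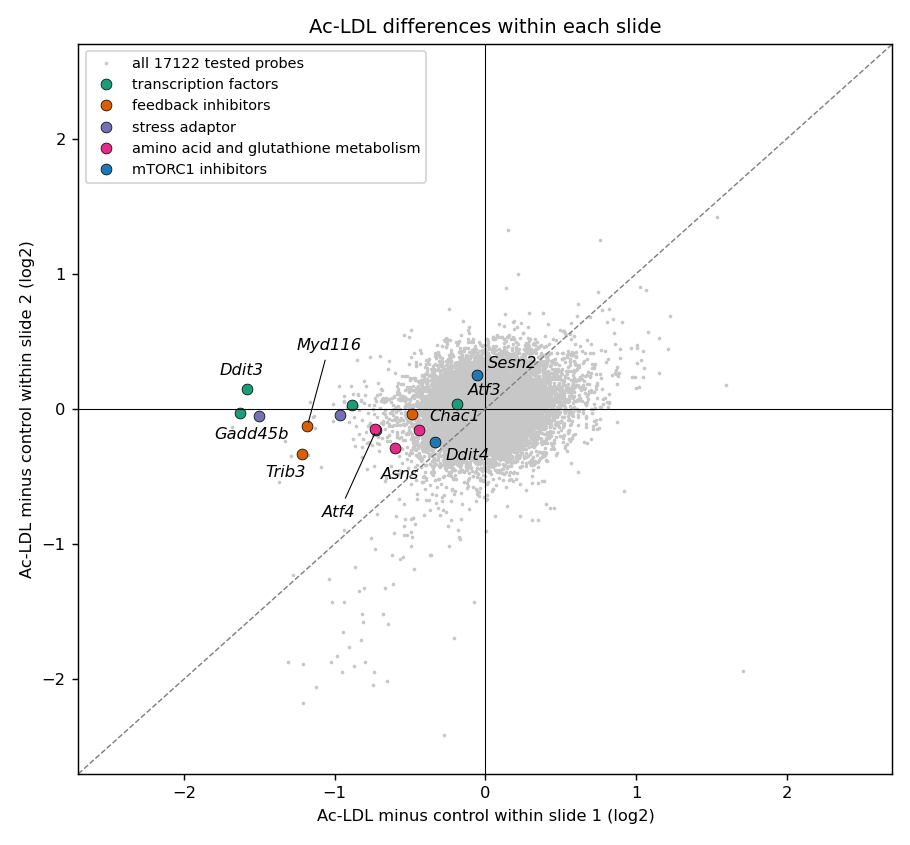
Log2 difference Ac-LDL minus control within slide 1 (x axis) and within slide 2 (y axis), for the 15 tested member probes, coloured by role, and all 17122 tested probes in grey. The name marks the brightest probe of each gene and the dashed line equal differences on both slides. *Ddit3*, *Gadd45b*, *Trib3* and *Myd116* lie far to the left, at -1.58 to -1.18 within slide 1, and at -0.33 to 0.15 within slide 2, while *Ddit4* lies near the dashed line.

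The slides themselves were compared by another contrast than the one on which the members were chosen, slide 2 minus slide 1 with the group as a term (limma, Benjamini-Hochberg adjustment over all tested probes). It rests on the same 8 arrays, the high control arrays of slide 1 included, and is no independent support for the differences within slide 1. The p-values take the 8 arrays as independent, although each slide held 2 replicate numbers and arrays of the same number were correlated. They therefore do not measure the spread between replicates, and the calls are a description. 4 of the 10 genes were called lower on slide 2, by 7 of the 15 probes, where 11.9% of all tested probes were called lower. By sign alone 9 of the 10 genes were lower. *Ddit3* had a log2 difference of -2.04 (standard error 0.29, adjusted p = 0.00169), and its second probe had -1.75 (adjusted p = 0.00237). *Gadd45b* had -1.54 (standard error 0.24, adjusted p = 0.00255), *Trib3* -0.99 (standard error 0.18, adjusted p = 0.00415) and *Myd116* -0.93 (standard error 0.19, adjusted p = 0.00731).

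The other 6 genes did not pass this test. *Chac1* had a difference of -0.18 (adjusted p = 0.171), *Asns* -0.14 (adjusted p = 0.423), *Atf3* -0.08 (adjusted p = 0.508), *Ddit4* -0.05 (adjusted p = 0.774), *Sesn2* -0.02 (adjusted p = 0.946) and *Atf4* 0.10 (adjusted p = 0.631) in the limma fit. Taken by group, slide 2 minus slide 1 was -2.91 in control and -1.18 in Ac-LDL arrays for *Ddit3*, -2.27 and -0.81 for *Gadd45b*, -1.44 and -0.55 for *Trib3*, and -1.45 and -0.40 for *Myd116*. A slide holds other cultures and another hybridisation, and these cannot be told apart.

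The order of the 4 group-by-slide levels in part restates the differences on which the members were chosen, and is given as a description. The slide 1 control arrays were both above the slide 1 Ac-LDL arrays for 9 genes, all but *Sesn2*, and both above the other 6 arrays for 7 genes, all but *Atf4*, *Sesn2* and *Ddit4*. Over probes the latter held for 12 of the 15, the dimmer *Atf4* probe among them, and for 12.6% of all tested probes. The slide 1 Ac-LDL arrays were in turn above the slide 2 Ac-LDL arrays for 4 genes, *Ddit3*, *Trib3*, *Myd116* and *Gadd45b*. On slide 2 the control and Ac-LDL arrays were apart for 4 genes, *Trib3*, *Asns*, *Chac1* and *Ddit4*, and overlapped for the other 6. Apart from the 12.6%, no share over all tested probes was taken for these orders, and nothing is read from the counts.

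The macrophage markers also differed between these arrays. The mean log2 level of the 9 tested markers of 10 was 9.42 and 9.68 on the slide 1 control arrays, 9.79 and 9.96 on its Ac-LDL arrays, 10.28 and 10.37 on the slide 2 control arrays and 10.33 and 10.39 on its Ac-LDL arrays. The mean was lowest on the slide 1 control arrays, on which *Ddit3* was highest, although *Cd68*, *Csf1r* and *Cd14* averaged lower on the slide 1 Ac-LDL arrays. The summed deposited signal of all 10 markers was not normalized between arrays and came mostly from *Lyz2*. It was 39968 to 45517 on the slide 1 control arrays, which spanned the 41658 to 41670.3 of its Ac-LDL arrays, and 51422 to 54150.5 on slide 2. 5 of the 9, *Emr1* by 1.19 among them, were called higher on slide 2 and none lower (limma). Between the slides 4042 of the 17122 tested probes were called in either direction, 2037 of them lower on slide 2. *Mertk* was called higher with Ac-LDL with the replicate block (adjusted p = 0.0364 in the limma fit, against 0.166 with the slide block and 0.817 without a block). The sum of the mesothelial and fibroblast markers, also of deposited signals, was 12710.4 to 18208 over all arrays and 13113 to 18208 on the slide 1 control arrays. By the normalized mean of the 5 tested markers, both slide 1 control arrays were highest, at 10.54 and 10.58, against 10.29 to 10.48 on the others. The part of these markers in the differences of the stress response genes was not tested.

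The 5 genes whose 8 centred values lay closest to those of *Ddit3* were *Soat2*, *Cxcl1*, *Saa3*, *H2-M2* and *4930511J11Rik*, with root mean square differences of 0.24, 0.41, 0.48, 0.52 and 0.53 log2 units over the 8 arrays. *Soat2*, which esterifies cholesterol, averaged 7.44 on the slide 1 control arrays, 6.27 on its Ac-LDL arrays and 5.04 on the Ac-LDL arrays of slide 2, where the control arrays were almost level with them. The chemokine gene *Cxcl1* averaged 8.74, 7.06, 6.67 and 6.53 on the control and Ac-LDL arrays of slide 1 and then of slide 2, and the acute-phase gene *Saa3* 12.95, 11.82, 11.01 and 10.95. Their Ac-LDL differences within slide 1 were -1.16 for *Soat2*, -1.68 for *Cxcl1* and -1.14 for *Saa3*, and within slide 2 they were 0.05, -0.14 and -0.06.

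The wider pathway was read from 7 lists with 97 tested genes. No gene of any list was called with Ac-LDL, without a block or with either block (limma over all tested probes), and 12 of the 97 had an unadjusted p under 0.05, beside 5.20% of all tested probes. The methods' t-test called none of them after the same adjustment and gave 11 such genes, beside 6.07% of all tested probes. The values below are thus counts and medians, beside a median of 0.0012 over all tested probes.

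Upstream of the members, the kinases and regulators of eIF2 were near 0. Of 14 tested genes 7 were lower and 7 higher with Ac-LDL, and the median was -0.00 over all arrays, -0.00 within slide 1 and -0.02 within slide 2. The largest differences were those of *Eif2b4* and *Ppp1r15b*. *Eif2b4*, a subunit of the exchange factor that recharges eIF2, had -0.24 (adjusted p = 0.949 in the limma fit). *Ppp1r15b*, the constitutive counterpart of GADD34 in eIF2 dephosphorylation, had -0.20 (adjusted p = 0.961 in the limma fit). The sensor kinase genes *Eif2ak3* and *Eif2ak4* had no tested probe.

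Downstream of ATF4, 11 of 13 genes of amino acid synthesis and transport were lower, with a median of -0.19, -0.23 within slide 1 and -0.11 within slide 2. The cationic amino acid transporter *Slc7a3*, dim at a mean log2 level of 5.54, had a difference of -0.66, -0.47 within slide 1 and -0.85 within slide 2. Its adjusted p was 0.257 in the limma fit, 0.0521 under the replicate block and 0.0742 under the slide block. *Slc3a2*, the common heavy chain of amino acid exchangers, had -0.43, with -0.76 within slide 1 and -0.10 within slide 2 (adjusted p = 0.778 in the limma fit). For both *Slc7a3* and *Slc3a2* all Ac-LDL arrays lay below all control arrays, as they did for 1.68% of all tested probes.

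Of the tRNA-charging genes 10 of 11 were lower, with a median of -0.11, -0.13 within slide 1 and -0.04 within slide 2, and the largest differences were -0.18 for *Sars* and -0.17 for *Wars*. Of the other ATF4 and CHOP targets 13 of 17 were lower, with a median of -0.17, -0.27 within slide 1 and -0.05 within slide 2. *Bbc3*, the gene of the cell death protein PUMA, had -0.59, with -0.82 within slide 1 and -0.35 within slide 2 (adjusted p = 0.817 in the limma fit, 0.0731 under the replicate block and 0.0757 under the slide block). The stress-induced chromatin protein gene *Nupr1* had -0.47, with -0.74 and -0.20 (adjusted p = 0.701 in the limma fit), and its control and Ac-LDL arrays did not overlap.

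The family relatives of the members lay on either side of 0, with 7 of 15 lower and a median of 0.03, 0.13 within slide 1 and -0.02 within slide 2. *Gadd45g* had -0.51, with -0.75 within slide 1 and -0.27 within slide 2 (adjusted p = 0.713 in the limma fit), without overlap between the groups. *Batf2*, dim at a mean log2 level of 4.89, had 0.36. *Gadd45a*, also induced by stress, had 0.29, the opposite sign to *Gadd45b*, and is named here after its values were seen. Of the immediate early genes, which respond to handling and to growth factors, 8 of 13 were lower. Their median was -0.03, -0.12 within slide 1 and -0.01 within slide 2. The largest differences were -0.50 for *Klf4*, without overlap between the groups, and 0.37 for *Fos*, with overlap.

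The chaperones of the endoplasmic reticulum, which the unfolded protein response induces through ATF6 and XBP1, lay mostly on the other side. Of 14 genes 12 were higher with Ac-LDL, with a median of 0.14, 0.23 within slide 1 and 0.18 within slide 2. The 2 lower genes were *Dnajb9* (-0.23) and *Hspa5* (-0.17, dim at a mean log2 level of 5.09), so the list did not move as a whole. *Calr*, a calcium-binding chaperone, had 0.47, with 0.59 and 0.35 on the slides (adjusted p = 0.686 in the limma fit), without overlap between the groups. *Sdf2l1* had 0.38, with 0.37 and 0.39 (adjusted p = 0.887 in the limma fit), and its groups overlapped.

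**Figure D3:**
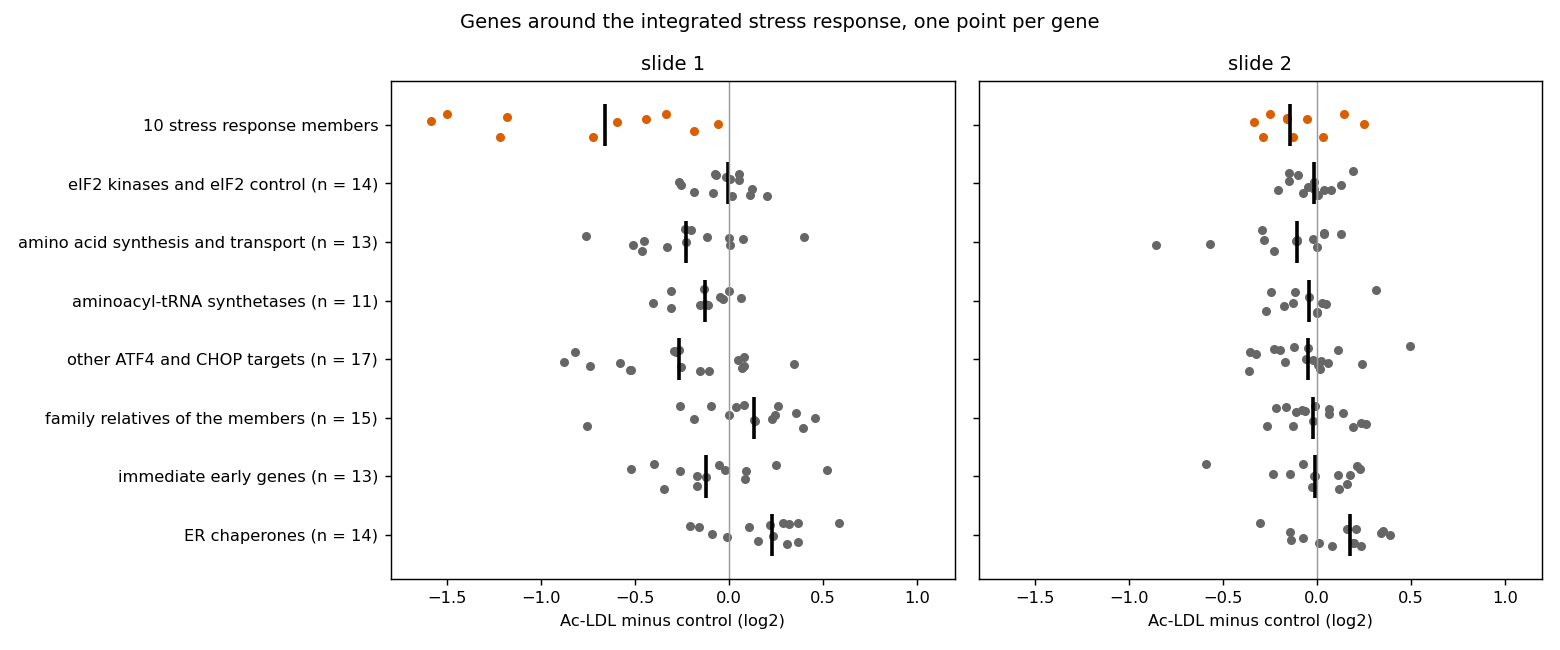
Log2 difference Ac-LDL minus control within slide 1 (left) and slide 2 (right), 1 point for each gene by its brightest tested probe, with a bar at the median of each list. The 10 stress response genes have a median of -0.66 within slide 1 and -0.14 within slide 2, the eIF2 regulators lie around 0 on both, and the chaperones of the endoplasmic reticulum have medians of 0.23 and 0.18.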

How the data were processed

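RNA of 8 macrophage cultures was hybridised to Illumina Mouse WG-6 v2.0 bead arrays. The authors deposited, for each probe and array, an intensity on the linear scale from BeadStudio that was neither background-subtracted nor normalized between arrays, a detection p-value, the bead standard error and the number of beads. The authors' own normalization, made in GeneSpring GX, was not used here. No per-sample column was left out (0 unused).

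Intensities were processed in R 4.3.3 with limma 3.58.1 (neqc, that is normexp background correction from the detection p-values with an offset of 16, quantile normalization and log2), which shrinks differences of dim probes. A probe was tested where 4 or more of the 8 arrays had a detection p-value no higher than 0.05. Groups were compared by limma's moderated test without a block, as the study's test was unpaired, with Benjamini-Hochberg adjustment over all tested probes, and again with 4 group-by-slide means and with slide and group as terms. Calls had an adjusted p under 0.05. The procedure was tested on simulated data.

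The 10 members, the gene lists and the markers were chosen with earlier results of these data known. All member probes are given, a gene by its brightest tested probe. Of each list, genes called and the 2 with the largest absolute difference are named, and of the chaperones also the 2 that were lower. For the member with the largest range, the 5 closest genes are named. Symbols are those of the deposited annotation, and 15 of 18 member probes were tested. Promoters came from RefSeq, GRCm38.p6, with *Myd116* found through its symbol *Ppp1r15a*.

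The labels' replicate numbers were checked for pairing. Deviations from the group means of control and Ac-LDL arrays of the same number had a correlation across probes of 0.579, 0.479, 0.468 and 0.629 for replicates 1 to 4, and of at most 0.447 for other numbers on the same slide. Arrays of the same number also lay at neighbouring positions on the chip, so a pairing of cultures and chip position cannot be told apart. An alternative fit took the numbers as a block. No arrays were identical. Alternatives changed the block, background correction, offset, scaling, filter, prior, test, probe per gene and arrays.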

Additional observations from a re-analysis of the deposited data

How the results depend on the processing

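The number of probes called with Ac-LDL over the whole array was 7. A block of replicate numbers gave 76, against 55 with the slide as a block, 23 with median scaling and 14 without background correction. There were 16 with limma-trend and a robust prior, and 0 without the filter and with the methods' t-test after the same adjustment. Leaving out arrays in turn gave 0 to 15, with 15 without control array 2, 1 without Ac-LDL array 4 and 0 without control array 4 or any other Ac-LDL array. None of these calls is a stress response gene in the comparison without a block or with either block. For the difference between slides, where no probe was called, 2 were with the replicate block, 2 with median scaling, 5 without background correction, 5 with an offset of 50 and 6 with limma-trend, and *Ddit3* was among them each time.

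The number of the 10 genes lower with Ac-LDL was 9 to 10 when arrays were left out singly or by replicate number. It was 5 without both control arrays of slide 1, an alternative chosen after seeing the data that sets 2 control arrays of slide 2 against Ac-LDL arrays of both slides and called 27 probes. The median was then -0.02, *Ddit3* had 0.74 and *Gadd45b* 0.36, and the cause was not tested. Within slide 1 the median of -0.66 moved between -0.85 without control array 2 and -0.50 without control array 1. With single arrays left out, the difference over all arrays ran from -1.23 to -0.19 for *Ddit3*, -1.19 to -0.37 for *Gadd45b*, -1.06 to -0.49 for *Trib3* and -0.92 to -0.38 for *Myd116*, each smallest without control array 1. It ran from -0.12 to -0.03 for *Atf3* and 0.01 to 0.23 for *Sesn2*. The probes called between slides, 4042, were 2333 to 4478 with single arrays left out, lower without each control array than without any Ac-LDL array. In all 14 alternatives 4 stress response genes were called lower on slide 2. Of 999 alternative values 930 stayed within the spread between replicates or, for counts, near the reported count, and 30 changed sign. For differences over all arrays that spread was taken across both slides, so it also held the gap between the slides. The move of the median from -0.44 to -0.02 thus counted as within it. Changes of block, filter or prior left the *Ddit3* difference at -0.72, as they did not alter the values compared. The count of 930 is therefore no measure of how stable the differences were.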
